A study of Gallus gallus with 23 samples.

Results

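Oxidative phosphorylation is carried out by 5 protein complexes of the inner mitochondrial membrane, and the genes of their subunits are described here in embryonic chicken growth cartilage. Members were the single-symbol probe sets whose symbol names a subunit of complex I (NDUFA, NDUFB, NDUFC, NDUFS, NDUFV, and ND genes), complex II (SDHA to SDHD), complex III (UQCR), complex IV (COX) or complex V (ATP5), without assembly factors. The rule found 72 probe sets. With the brightest probe set kept for each gene, 57 genes remained of 11528 gene symbols on single-symbol probe sets: 27 of complex I, 3 of complex II, 6 of complex III, 10 of complex IV and 11 of complex V. Of these, 56 passed the filter on low spread and were tested. The exception was UQCRQ of complex III.

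Growth cartilage was taken from the distal end of the femur and the proximal end of the tibiotarsus (TBT) of chicken embryos, and RNA from the pooled tissue of 4 embryos went on each array. Immobilised embryos received decamethonium bromide from embryonic day (E) 10, which blocks the neuromuscular junction and causes rigid paralysis, and their femur and TBT were taken at E15 (3 arrays each). Control embryos received the vehicle, Tyrode's solution, and their femur and TBT were taken at E12, E13 and E15 (3 arrays each, except 2 for E15 control femur). Immobilisation was of the whole embryo, so the drug and the loss of movement cannot be told apart. The sex of the embryos was unknown.

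Complex I takes electrons from NADH and complex II takes them from succinate. Both pass them through ubiquinone to complex III, which hands them to cytochrome c, and complex IV passes them on to oxygen. Complexes I, III and IV pump protons, and complex V, the ATP synthase, lets the protons back to make ATP. Most subunits are encoded in the nucleus and a few in mitochondrial DNA, except those of complex II, which are all nuclear. The chondrocytes of growth cartilage are known for making much of their ATP by glycolysis. Subunit roles named here are those known from the mammalian enzymes.

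All values are log2 array values, and a gene is called at an adjusted p under 0.05 in the limma fit over all 11004 probe sets past the filter. Array medians lay between 5.78 and 5.85. Every array name carries a code of 05, 07 or 09. All E15 femur arrays have 05 and all E15 TBT arrays have 07 or 09. Within E15 the element and the code therefore cannot be told apart, whereas immobilised and control arrays of an element share codes. All E13 control femur arrays have 07, and E12 control femur arrays have 05 or 09. In femur, E13 thus shares no code with E12 or E15, so stage and code cannot be told apart there. E15 and E12 femur share code 05. The 10 chondrocyte markers measured summed to between 44970 and 56300 in linear units on all arrays. ACAN, MATN1, COL9A1, COL9A3, COL11A1 and HAPLN1 lay between 12.25 and 13.05 on every array, whereas SOX9 ran from 8.91 to 9.71, MATN3 from 10.34 to 12.01, COMP from 8.58 to 11.62 and COL10A1 from 9.05 to 12.09. COL2A1 was not analysed here. RNA of 1 array stood apart in a gene of the W chromosome, the sex chromosome that only female birds carry. HINTW was 7.86 in E13 control femur replicate 1 and between 10.83 and 11.69 on the other 22 arrays. Medians over the members in the comparisons that use this array are given with and without it. For E15 against E12/13 femur the complex medians and the count of called members are given both ways too. Markers of skeletal muscle moved with stage and with immobilisation. Their summed linear level (20 markers) is therefore given beside the results it touches. In such pooled tissue, fewer cells of a type and less RNA per cell cannot be told apart.

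The members spanned a wide range of array values, which depend on the probe as well as on the transcript. Means over the 23 arrays ran from 6.25 for UQCRQ to 13.36 for ND4L. Both members at the top, ND4L and COX3, are encoded in mitochondrial DNA, and the next were nuclear genes of complex IV, NDUFA4 (11.53), COX6A1 (10.98) and COX7B (10.90). The lowest of the 8 group means fell in E15 control femur for 29 of the 57 members (50.9%), against 18% of all probe sets past the filter. By complex these were 14 of 27 for complex I, 1 of 3 for complex II, 3 of 6 for complex III, 6 of 10 for complex IV and 5 of 11 for complex V. E15 immobilised femur held the lowest mean of 12 more members (21.05%, against 16.48% of all probe sets) and E15 control TBT of 0 (against 15.89%). Members also varied together. The mean of Pearson's r over pairs of members was 0.211 across the 23 arrays, and 0.0668 after group means were taken off, against 0.00414 and 0.00589 for all probe sets. Within complexes the mean r ran from 0.0311 for complex II to 0.427 for complex III. After group means were taken off the order changed, from 0.0333 for complex V and 0.0350 for complex IV to 0.0989 for complex III and 0.142 for complex II. NDUFB5, NDUFS5 and UQCR11 followed the median of the other members most closely (r = 0.817, 0.811 and 0.810), and ND6 ran against it (r = -0.52). These correlations share arrays and normalisation and are descriptions only.

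**Figure D1:**
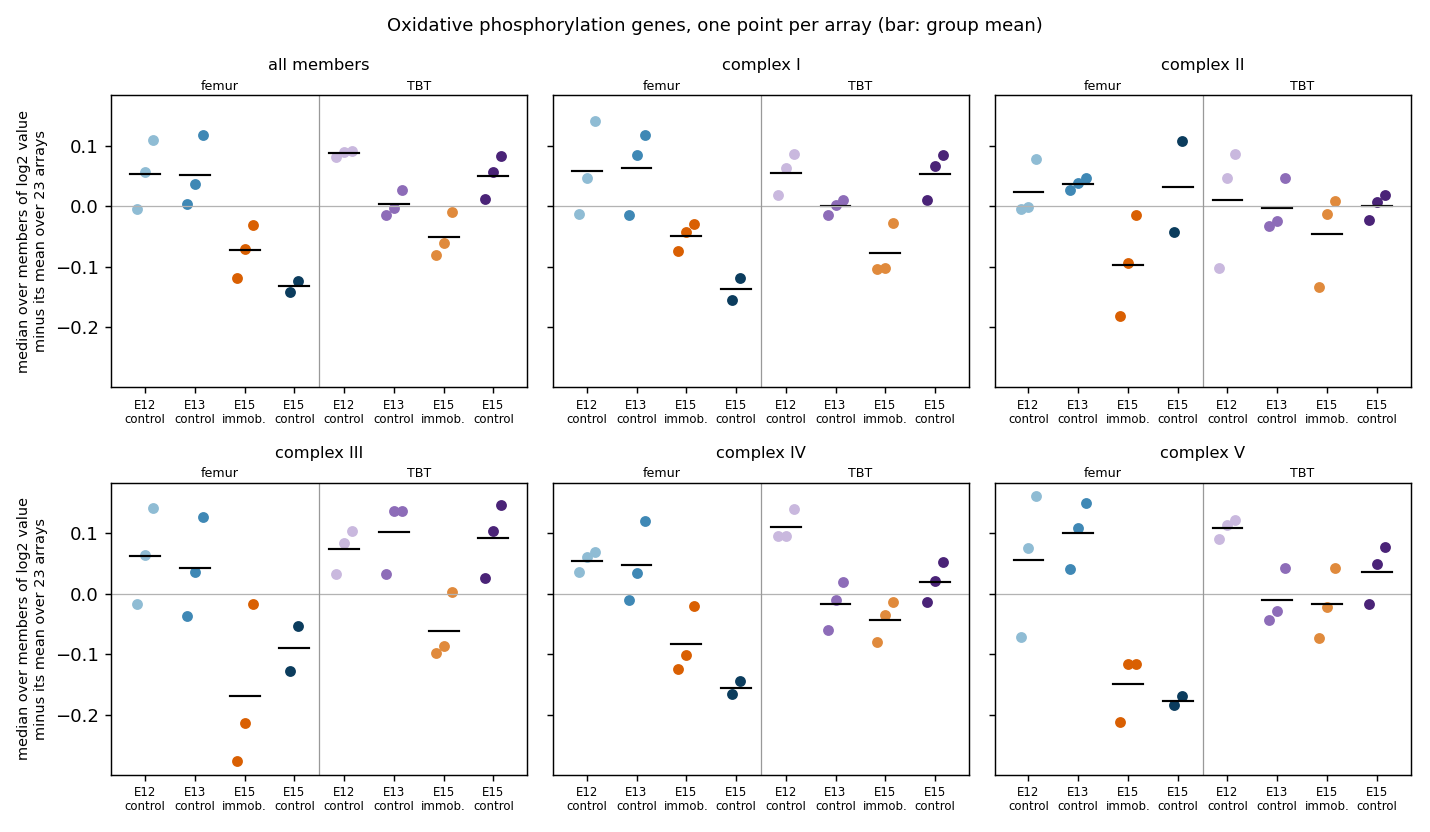
Median deviation of the members from their means over the 23 arrays (log2), for all 56 tested members and for each complex; each point is an array, each bar a group mean, and the x axis gives stage and treatment for femur and TBT. The 2 E15 control femur arrays sit at -0.141 and -0.124 for all members, below every other array, the next being immobilised femur replicate 3 at -0.118. They also lie lowest for complexes I and IV. For complexes II, III and V an immobilised femur array lies below both (-0.182, -0.277 and -0.212).

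At E12 and E13 no member was called between femur and TBT. In E12 femur against E12 TBT, 0 members were called (background 0% of all probe sets), 1 had an unadjusted p under 0.05, and the median difference was -0.03 with 35 of 56 below 0. In E13 femur against E13 TBT, 0 were called (background 0%), 2 had an unadjusted p under 0.05, and the median was 0.06 with 43 of 56 above 0. E13 against E12 cartilage, over both elements, also gave 0 calls (background 0%), 4 members at an unadjusted p under 0.05 and a median of -0.03. Without the array with low HINTW the medians were 0.05 for E13 femur against TBT and -0.05 for E13 against E12. COX7A2L, a relative of COX7A2 found in supercomplexes in mammals, had the lowest p with stage (difference -0.21, SE 0.07, adjusted p = 0.38). ATP5S, a coupling factor of the ATP synthase in mammals, had the lowest p at E12 and had the opposite sign at E13. Its values were 6.44, 6.11 and 6.25 in E12 femur, against 6.82, 6.58 and 6.46 in E12 TBT (difference -0.35, SE 0.12, adjusted p = 0.475). At E13 they were 6.70, 6.71 and 6.72 in femur, against 6.39, 6.39 and 6.45 in TBT (difference 0.30, SE 0.12, adjusted p = 0.978). The arrays of the groups did not overlap in either case, but neither difference passed the test over all probe sets.

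By E15, control femur lay below control TBT in 49 of 56 members, with a median difference of -0.17 against 0.005 for all probe sets. The medians were -0.22 for complex I, 0.02 for complex II, -0.37 for complex III, -0.17 for complex IV and -0.15 for complex V. The complex V median was -0.28 without E15 control femur replicate 2. It was -0.255 when replicate 1 of E15 control TBT was left out, and -0.235 when replicate 2 was. Only COX7A2 passed the test (1 of 56 lower, background 0.127% lower). COX7A2, a small nuclear subunit of complex IV, had values of 9.10 and 9.05 in control femur, against 9.57, 9.40 and 9.75 in control TBT (difference -0.50, SE 0.10, adjusted p = 0.0467, a fold of 0.708). Both femur arrays were lower than all 3 TBT arrays. The call is lost in 11 of its 14 alternatives, with adjusted p between 0.0187 and 0.37. One of them takes the array code as a block, where no probe set at all is called, and where the median was -0.27 over members and -0.301 for complex V. Without either E15 control femur array COX7A2 is also not called.

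Both femur arrays lay below all 3 TBT arrays at E15 in 31 of 56 members, COX7A2 included, against 16.1% of all probe sets: 16 of 27 in complex I, 0 of 3 in complex II, 3 of 5 in complex III, 6 of 10 in complex IV and 6 of 11 in complex V. Members are not independent of each other, and 2 arrays against 3 separate easily. In complex I, the accessory membrane subunit NDUFC2 had 7.66 and 7.55 in control femur, against 8.23, 8.23 and 8.29 in control TBT (difference -0.65, SE 0.15, adjusted p = 0.0656). NDUFS5, an accessory subunit on the outer face of the membrane arm, had 8.13 and 8.17 in control femur, against 8.63, 8.39 and 8.84 in control TBT (difference -0.47, SE 0.11, adjusted p = 0.0651). All femur arrays were below all TBT arrays for both. In complex V, ATP5E, the epsilon subunit of the central stalk, had 8.39 and 8.69 in control femur, against 9.01, 9.05 and 9.05 in control TBT (difference -0.50, SE 0.11, adjusted p = 0.0651). In complex III, UQCRC1, a core protein, had 8.47 and 8.41 in control femur, against 8.84, 8.61 and 8.98 in control TBT (difference -0.37, SE 0.11, adjusted p = 0.143). These members are again without overlap between the groups.

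A few members lay above 0 at E15. In complex II, SDHA, the flavoprotein that oxidises succinate, had 8.79 and 8.81 in control femur, against 8.71, 8.77 and 8.68 in control TBT (difference 0.08, SE 0.07, adjusted p = 0.632). SDHB, the iron-sulphur subunit of the same complex, lay on the other side, with a difference of -0.14 (SE 0.09, adjusted p = 0.488). The 95% interval of the difference ran from -0.07 to 0.23 for SDHA and from -0.33 to 0.05 for SDHB. NDUFA9, an accessory subunit near the ubiquinone site of complex I, had 9.23 and 9.30 in control femur, against 9.10, 9.03 and 9.02 in control TBT (difference 0.22, SE 0.13, adjusted p = 0.438). SDHA and NDUFA9 were the 2 members with femur arrays wholly above TBT arrays. The share of all probe sets with femur wholly above TBT is not given, so this count is not read as a result about the members. The study lists some members from these same arrays, so their direction here is not independent evidence. The 5 of them given here (ATP5C1, ATP5H, COX6A1, NDUFB9 and UQCRC1) had differences between -0.37 and -0.27, and 0 of 5 were called. The study made its list with another test, significance analysis of microarrays, so this count does not repeat its test. It describes its UQCRC1 entry as subunit X of complex III, so that entry may not be the same gene.

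Markers of other cell types are given for the E15 control elements as well, with 0 called in any list. Leukocyte and osteoclast markers were below 0 in 6 of 6 tested (median -0.353), and their 7 measured markers summed to between 1711 and 1862 in control femur, against 1957 to 2767 in control TBT. Erythroid markers were below 0 in 4 of 4 (median -0.265), with sums of 9003 to 10020 in control femur, against 10580 to 12100 in control TBT. Fibrous tissue markers were above 0 in 6 of 6 (median 0.338), with sums of 10260 to 11090 in control femur, against 6902 to 10600 in control TBT. Skeletal muscle markers had 11 of 18 below 0 (median -0.127), with sums of 1941 to 2749 in control femur, against 1734 to 3790 in control TBT. Endothelial markers had 6 of 8 below 0 and adipocyte markers 3 of 4. Osteoblast markers had 6 of 8 above 0 and neuron and Schwann cell markers 4 of 4. Leukocyte and osteoclast markers already lay below 0 in femur against TBT at E12 (5 of 6) and at E13 (6 of 6). The part of these other cells in the difference of the members was not tested.

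**Figure D2:**
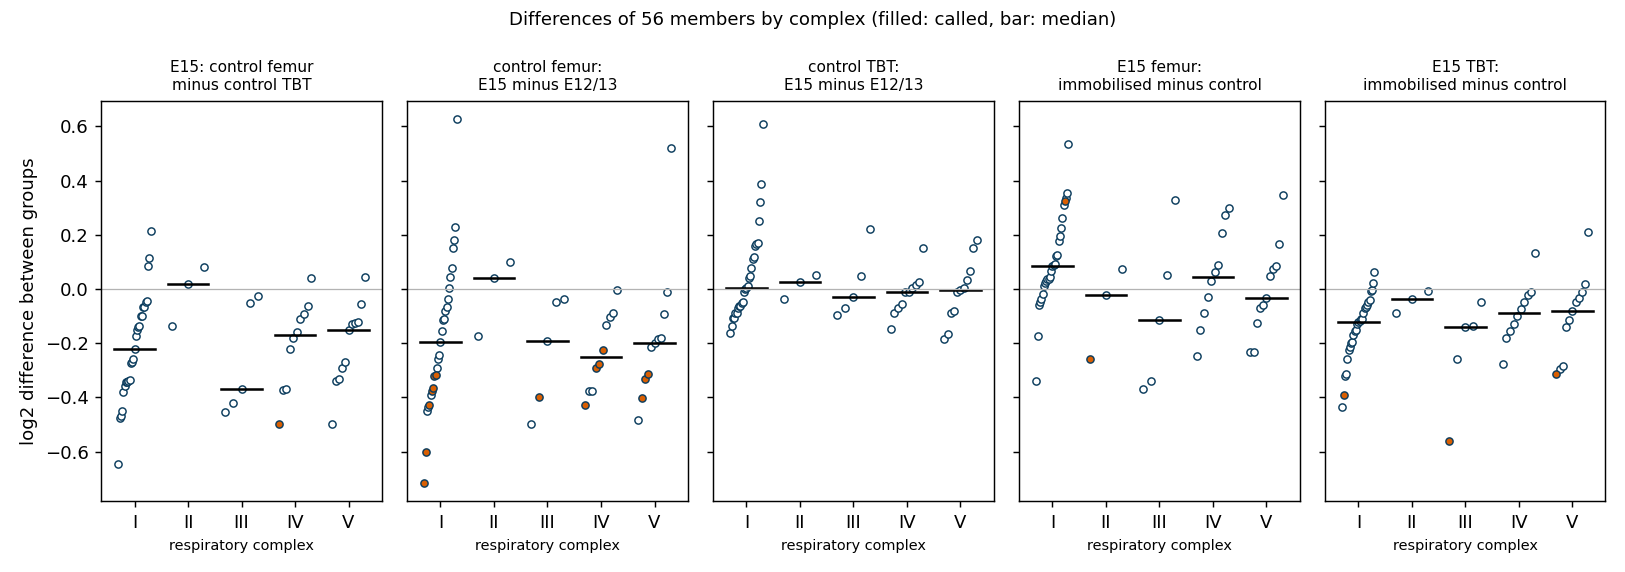
Log2 differences of the 56 tested members in 5 comparisons, by respiratory complex; each point is a gene, filled where called, and bars are medians. Complexes I, III, IV and V lie mostly below 0 in the first 2 panels, with 1 and 15 called members, and around 0 in control TBT across stages.

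In control femur, E15 was lower than E12 and E13 (the mean of both groups) in 46 of 56 members. Of these, 15 were called lower and 0 were called higher (background 6.97% lower), with 7 in complex I, 0 in complex II, 1 in complex III, 4 in complex IV and 3 in complex V. The median was -0.19 over members and 0.01 over all probe sets. It was -0.20 for complex I, 0.04 for complex II, -0.19 for complex III, -0.25 for complex IV and -0.20 for complex V. Without the array with low HINTW it was -0.185 over members, and -0.188, 0.029, -0.184, -0.235 and -0.176 for complexes I to V. Arrays did not overlap, with E15 below, in 24 of 56 members (background 13.5%). The E15 control femur arrays are the same as in the comparison with TBT, so both share what is particular to these 2 arrays.

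NDUFC2 had the greatest called decrease. It was 7.66 and 7.55 in E15 control femur, against 8.69, 8.16 and 8.13 at E12 and 8.61, 8.30 and 8.04 at E13 (difference -0.72, SE 0.13, adjusted p = 0.00331, a fold of 0.609). NDUFS8, a core subunit with iron-sulphur clusters, was 6.58 and 6.36 in E15 control femur, against 7.31, 7.24 and 6.84 at E12 and 7.02, 7.26 and 6.75 at E13 (difference -0.60, SE 0.14, adjusted p = 0.0115). NDUFB5, an accessory subunit of the membrane arm, was 8.65 and 8.69 in E15 control femur, against 9.16, 9.22 and 9.01 at E12 and 9.05, 9.13 and 9.02 at E13 (difference -0.43, SE 0.08, adjusted p = 0.00298). All 3 genes had E15 arrays below every earlier femur array. The remaining complex I calls were NDUFB2 (-0.38), NDUFS5 (-0.37), NDUFB8 (-0.32) and NDUFB9 (-0.32), with adjusted p between 0.0172 and 0.0483. All 9 NDUFB genes were below 0 (median -0.32, 4 called), against 3 of 7 complex I genes with symbols starting NDUFA (median 0.05, 0 called). These 7 include NDUFAB1 and leave out NDUFA4, which is counted in complex IV. The fall was not particular to NDUFB genes. All 5 NDUFS genes were below 0 (median -0.157, 2 called), as was NDUFC2, and so was 1 of 3 NDUFV genes (median 0.003, 0 called). This grouping by symbol was made after the values were seen and is not tested.

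In complex IV, COX6A1 was lower, at 10.61 and 10.67 in E15 control femur, against 11.05, 11.17 and 10.94 at E12 and 11.05, 11.29 and 10.92 at E13 (difference -0.43, SE 0.09, adjusted p = 0.00527). COX6A1 is the isoform of subunit 6A found outside muscle in mammals, and its E15 arrays did not overlap the earlier ones. COX7A2 (-0.29), COX7B (-0.28) and NDUFA4 (-0.23), which is part of complex IV in mammals despite its name, were called as well, with adjusted p between 0.0407 and 0.0476. COX4I1, the subunit that carries an allosteric ATP site, lay between 9.93 and 10.22 on all 23 arrays. Of the tissue-restricted isoforms COX4I2, COX6A2, COX7A1, COX8C and NDUFA4L2, none was analysed here. In complex V, ATP5H, the d subunit of the stator stalk, was 9.25 and 9.25 in E15 control femur, against 9.70, 9.74 and 9.42 at E12 and 9.72, 9.87 and 9.47 at E13 (difference -0.40, SE 0.10, adjusted p = 0.0199). ATP5E (-0.33) and ATP5B, the catalytic beta subunit (-0.32), were called with adjusted p of 0.0400 and 0.0428. In complex III the call was UQCR11, a small accessory subunit (difference -0.40, SE 0.13, adjusted p = 0.0490).

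The counts of called members in femur rest on the 2 E15 arrays. Without E15 control femur replicate 1, only NDUFC2 is called (adjusted p = 0.0364), and without replicate 2 only NDUFB5 (adjusted p = 0.0465), while calls over all probe sets drop to 2.4% and 1.81%, against 12.2%. With the 3 femur groups fitted alone, 0 members are called (2.1% of all probe sets), and the adjusted p of NDUFB5 is 0.0593. Without E13 control femur replicate 1, the array with low HINTW, 9 of the 15 are called. Without E12 control femur replicate 1, 7 are called, and without E12 control femur replicate 2, 8. The share over all probe sets is not given for these fits, so their counts are not read as results about the members. Within array code 05, where 2 E15 arrays meet 2 E12 arrays, the median over members was -0.21 with 42 of 56 below 0, and NDUFC2, NDUFS8, NDUFB5 and COX6A1 differed by -0.82, -0.81, -0.52 and -0.47. No E13 control femur array carries code 05. With the code as a block 9 of the 15 are called, and the share over all probe sets is not given for this fit.

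Other cell types moved between these stages too. The 20 skeletal muscle markers summed to between 1941 and 2749 in E15 control femur. At E13 the sum was 3545 to 5021 and at E12 4989 to 6452. Of 18 tested, 17 lay below 0 (median -0.958) and 6 were called lower. Leukocyte and osteoclast markers lay above 0 in 6 of 6 tested (5 called) and endothelial markers in 7 of 8 (3 called). Fibrous tissue markers lay above 0 in 6 of 6, with LUM and DPT called. Osteoblast markers lay above 0 in 7 of 8, with 3 called higher and 1 lower. All 4 erythroid markers tested were called, with HBA1, HBAD and EPB42 higher and HBE lower. Over all probe sets 5.26% were called higher and 6.97% lower. Of 10 chondrocyte markers, 7 lay above 0, with COMP and COL10A1 called higher and SOX9 and MATN1 called lower. In TBT, muscle markers lay below 0 at E15 in 17 of 18 tested, with 7 called lower. Leukocyte and osteoclast markers lay above 0 there in 6 of 6, with 5 called higher. The part of these other cells in the change of the members was not tested in either element.

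In control TBT, 0 of 56 members were called between E15 and E12/13 (background 9.46% in either direction), and 5 had an unadjusted p under 0.05. Of the 56, 28 lay below 0, and the median was -0.002. NDUFB5 was 9.09, 8.95 and 8.99 in E15 control TBT, against 9.10, 9.18 and 9.16 at E12 and 8.95, 9.0 and 9.05 at E13 (difference -0.06, SE 0.07, adjusted p = 0.606). NDUFC2 differed by -0.05 (SE 0.12, adjusted p = 0.824) and COX7A2 by 0.15 (SE 0.08, adjusted p = 0.233). These arrays overlap the earlier ones. Whether the change with stage differs between the elements was tested by the femur change minus the TBT change. Its median over members was -0.20 (-0.235 without the array with low HINTW), with 45 of 56 below 0, but 0 members were called (background 0%), and 19 had an unadjusted p under 0.05. The lowest p-values were those of COX7A2 (-0.44, SE 0.12) and NDUFC2 (-0.66, SE 0.18), both with an adjusted p of 0.297.

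**Figure D3:**
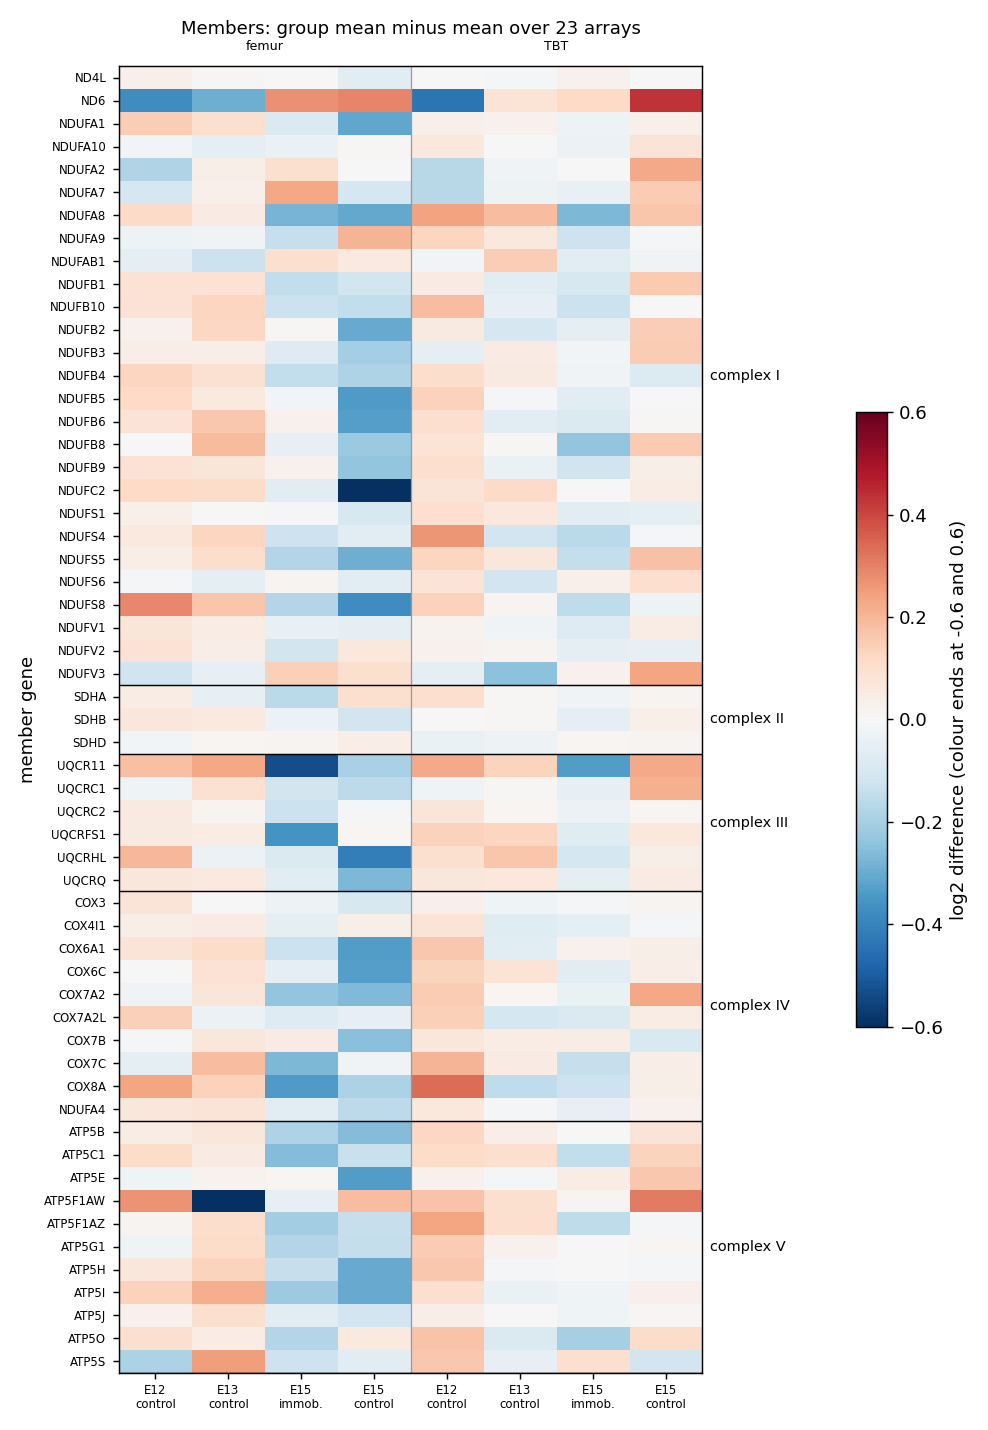
Group means of the 57 members as log2 differences from the mean of each member over 23 arrays, ordered by complex, with stage and treatment on the x axis. The column of E15 control femur is the lowest for 29 members, and ATP5F1AW in E13 control femur and NDUFC2 in E15 control femur pass the lower end of the colour scale.

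With immobilisation of the femur at E15, 1 of 56 members was called higher and 1 lower, NDUFB5 and SDHA. These shares are no larger than those over all probe sets (background 1.89% higher and 2.5% lower). NDUFB5 had 8.94, 9.10 and 8.94 in immobilised femur, against 8.65 and 8.69 in control femur (difference 0.32, SE 0.09, adjusted p = 0.0442, a fold of 1.25). All immobilised arrays were above both control arrays. SDHA had 8.52, 8.61 and 8.5 in immobilised femur, against 8.79 and 8.81 in control femur (difference -0.26, SE 0.07, adjusted p = 0.0459, a fold of 0.837). These groups did not overlap either.

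The medians in the femur were 0.09 for complex I, -0.02 for complex II, -0.12 for complex III, 0.05 for complex IV and -0.03 for complex V, and 0.05 over all members against 0.00 for all probe sets. Leaving out 1 array at a time, the complex III median ran from -0.17 to -0.085 and that of complex IV from 0.022 to 0.08, and those of complexes II and V changed sign. NDUFC2 came close to the threshold, with 8.24, 8.10 and 8.08 in immobilised femur, against 7.66 and 7.55 in control femur (difference 0.54, SE 0.15, adjusted p = 0.0508). ATP5E (0.35, adjusted p = 0.0919) and COX7B (0.30, adjusted p = 0.0892) also had every immobilised array above the control arrays. This was so for 15 of 56 members (background 18.6% of all probe sets), 9 of them in complex I. Complex III held members on the other side. UQCRFS1, the Rieske iron-sulphur protein, had 7.99, 8.10 and 8.08 in immobilised femur, against 8.37 and 8.48 in control femur (difference -0.37, SE 0.11, adjusted p = 0.0675). UQCR11 had 8.21, 8.77 and 8.37 in immobilised femur, against 8.65 and 8.93 in control femur (difference -0.34, SE 0.14, adjusted p = 0.195), and these arrays overlap. Immobilised and control femur arrays all carry code 05. Neither call is kept without either E15 control femur array, and with arrays centred on their medians 0 members are called. The share over all probe sets is not given for these fits either, so this is not read as a result about the members.

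In TBT, immobilised cartilage lay below control in 51 of 56 members, with a median of -0.11 against 0.007 for all probe sets. UQCR11, NDUFB8 and ATP5O were called lower (3 of 56, background 2.86% lower) and 0 were called higher (background 2.88% higher). UQCR11 had 8.71, 8.62 and 8.61 in immobilised TBT, against 9.22, 9.15 and 9.26 in control TBT (difference -0.56, SE 0.13, adjusted p = 0.0143, a fold of 0.677). NDUFB8, an accessory membrane subunit of complex I, had 7.52, 7.41 and 7.41 in immobilised TBT, against 7.85, 7.78 and 7.89 in control TBT (difference -0.39, SE 0.09, adjusted p = 0.0197). ATP5O, which holds the catalytic head of the ATP synthase to its stator, had 9.38, 9.24 and 9.33 in immobilised TBT, against 9.53, 9.65 and 9.71 in control TBT (difference -0.31, SE 0.08, adjusted p = 0.0263). No array of 1 group reached into the other for these genes.

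The TBT medians were -0.12 for complex I, -0.04 for complex II, -0.14 for complex III, -0.09 for complex IV and -0.08 for complex V. Without immobilised TBT replicate 2 that of complex III was -0.268 and that of complex V -0.043, without control TBT replicate 2 that of complex V was -0.142, and that of complex II ran from -0.078 to -0.012 on leaving out 1 array. Arrays did not overlap, with immobilised below, in 15 of 56 members (background 10.9%). NDUFS5 (-0.32, adjusted p = 0.0608) and COX7A2 (-0.28, adjusted p = 0.0779) came next to the threshold, again without overlap. SDHA differed by -0.04 in TBT (SE 0.06, adjusted p = 0.826), UQCRFS1 by -0.14 (SE 0.10, adjusted p = 0.51) and NDUFB5 by -0.07 (SE 0.08, adjusted p = 0.717). Within array code 07 the median over members was -0.10 and within code 09 it was -0.07, with 41 of 56 below 0 in each. Without immobilised TBT replicate 2, immobilised TBT replicate 3 or control TBT replicate 3, 0 members are called, and without control TBT replicate 2, 5. For these fits the share over all probe sets is not given, so their counts are not read as results about the members.

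**Figure D4:**
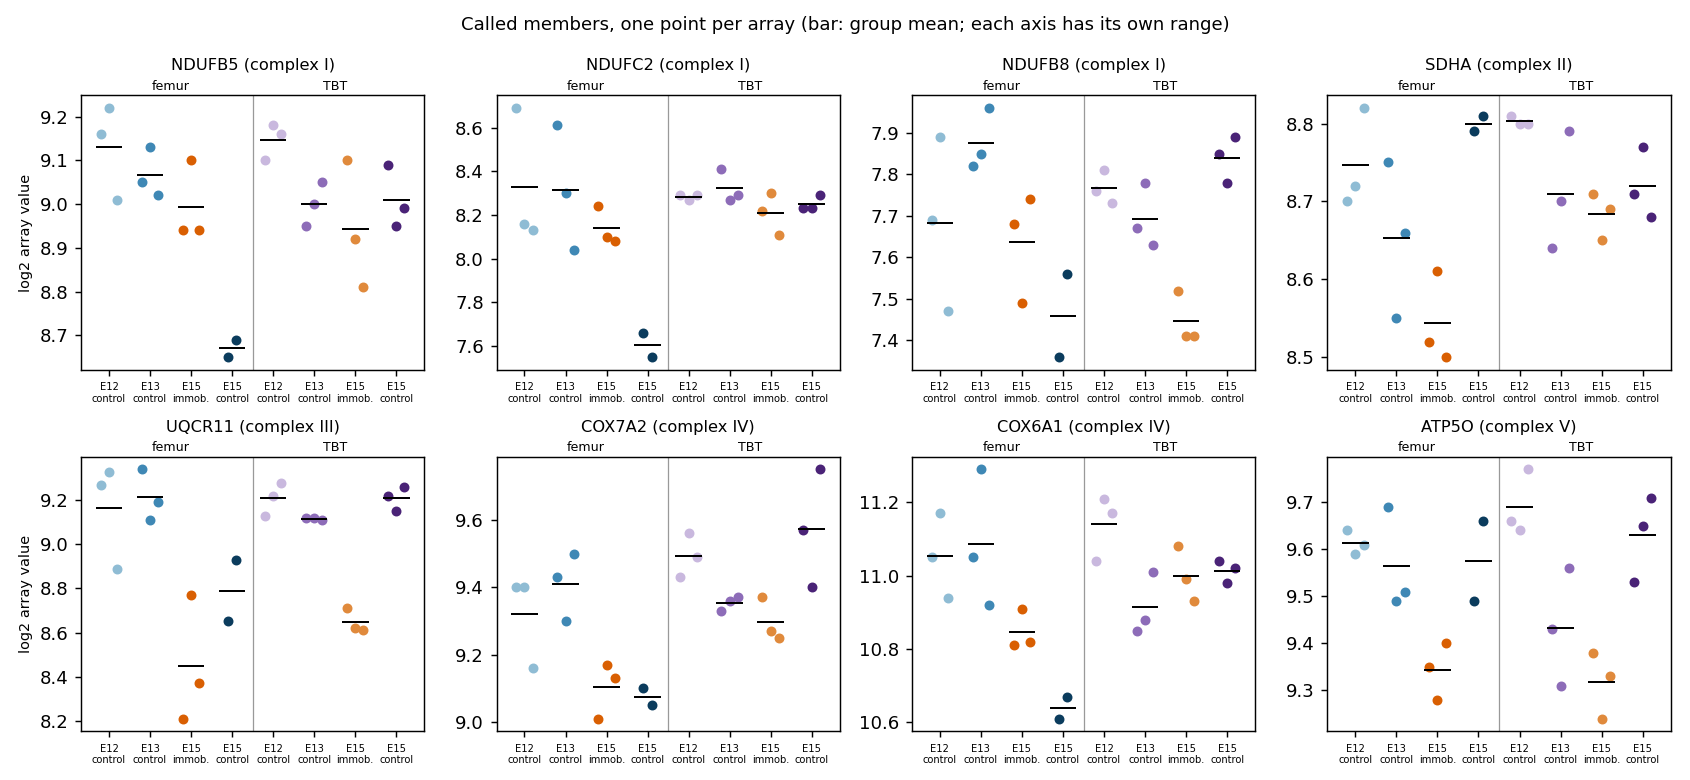
Log2 array values of 8 members called in at least 1 comparison, by stage and treatment for femur and TBT; each point is an array, bars are group means, and each panel has its own range. NDUFB5, NDUFC2 and COX6A1 have their lowest arrays in E15 control femur, SDHA in immobilised femur, and UQCR11 and ATP5O are low in immobilised femur and TBT.

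The effect of immobilisation in femur minus that in TBT had a median of 0.16 over members, with 45 of 56 above 0, and complex I had the highest median (0.29). No member was called (0 of 56, background 0.182% in either direction), and 10 had an unadjusted p under 0.05. NDUFB8 came first, with a difference of 0.18 in femur, -0.39 in TBT and 0.57 between them (SE 0.14, adjusted p = 0.171). NDUFB9 (0.42, SE 0.12, adjusted p = 0.245) and NDUFB5 (0.39, SE 0.12, adjusted p = 0.286) came next. The comparisons in femur with stage, with TBT and with immobilisation share the E15 control femur arrays. Immobilised femur against immobilised TBT gave 0 calls among members (background 2.04%), 3 at an unadjusted p under 0.05 and a median of -0.03.

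Muscle markers differed far more with immobilisation than the members did. They summed to between 489.6 and 903.9 in immobilised femur, against 1941 to 2749 in control femur, and to between 459.6 and 691.1 in immobilised TBT, against 1734 to 3790 in control TBT. All 18 tested lay below 0 in both elements, with medians of -2.16 in femur and -2.27 in TBT, and 16 and 17 were called lower. Chondrocyte markers had 0 of 10 called in either element. The neuronal genes NEFL and NEFM rose in both elements (2 of 4 tested). Of 6 fibrous tissue markers, TNMD rose and POSTN and DPT fell in both. HBE of the 4 erythroid markers rose in femur. In TBT the erythroid HBA1, the endothelial EMCN and the osteoblast gene ALPL fell, each the only call of its list. Leukocyte and osteoclast markers had 0 calls, with 6 of 6 below 0 in TBT (median -0.49) and 3 of 6 in femur. They summed to between 1335 and 2010 in immobilised TBT, against 1957 to 2767 in control TBT. Erythroid markers summed to between 7083 and 7826 in immobilised TBT, against 10580 to 12100 in control TBT. The part of these other cells in the differences of the members was not tested.

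The genes of mitochondrial DNA showed a split by probe set. ND4L has 11 probe sets, COX3 has 3 and ND6 has 2, and 14 of these 16 were tested. The 3 chosen as members are the brightest. ND4L lay between 13.29 and 13.44 and COX3 between 13.13 and 13.37 on all arrays, and neither was called in any comparison. In E15 against E12/13 cartilage, other probe sets were called, ND4L 15550925 (-0.84, adjusted p = 0.0105) and COX3 15550903 (-0.35, adjusted p = 0.0447) lower in femur and ND4L 15550909 higher in TBT (1.21, adjusted p = 0.00532). ND6 ranged more widely, between 9.74 and 11.18, and was higher at E15 by 0.63 in femur (SE 0.26, adjusted p = 0.126) and by 0.61 in TBT (SE 0.23, adjusted p = 0.101), which did not pass the test.

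The dimmer probe sets of ND4L and COX3 stood higher in immobilised than in control cartilage at E15. Of the 14 tested, 7 had means under 8, and all 7 were above 0 in both elements, by 0.59 to 1.55 in femur and by 0.54 to 1.71 in TBT. The limit of 8 was chosen after the values were seen, so this split is a description. Among all probe sets past the filter with means under 8, 2.12% were above 0.5 in both elements. The limit of 0.5 lies just under the lowest of the 7 differences. These 7 carry only the symbols ND4L and COX3 and share arrays, so the comparison of shares is no test. ND4L probe set 15550919 had 6.85, 7.10 and 6.33 in immobilised femur, against 5.31 and 5.11 in control femur (difference 1.55, SE 0.25, adjusted p = 0.00149). In TBT it had 7.26, 6.74 and 6.51 in immobilised cartilage, against 4.98, 5.58 and 4.82 in control cartilage (difference 1.71, SE 0.22, adjusted p = 0.000156). For 15550919 all 6 immobilised arrays were above all 17 control arrays of any stage, which ended at 6.0. The other tested probe sets with means under 8 overlapped control arrays of E12 or E13. ND4L 15550925 had 8.41 and 8.52 in E12 control femur replicates 1 and 2, against 7.95, 8.21 and 7.65 in immobilised femur. The values of 15550919 are low, with a mean over the 23 arrays (5.811) at the level of the array medians. ND4L probe set 15550917 was called in both elements (1.27 in femur, adjusted p = 0.0321, and 1.05 in TBT, adjusted p = 0.0384), and 15550921 in TBT (1.15, adjusted p = 0.0192). The 7 tested probe sets with higher means differed by -0.35 to 0.07 in femur and by -0.45 to 0.15 in TBT. The files do not say which part of the mitochondrial transcripts each probe set reads, so the probe sets of 1 symbol may not measure the same RNA.

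**Figure D5:**
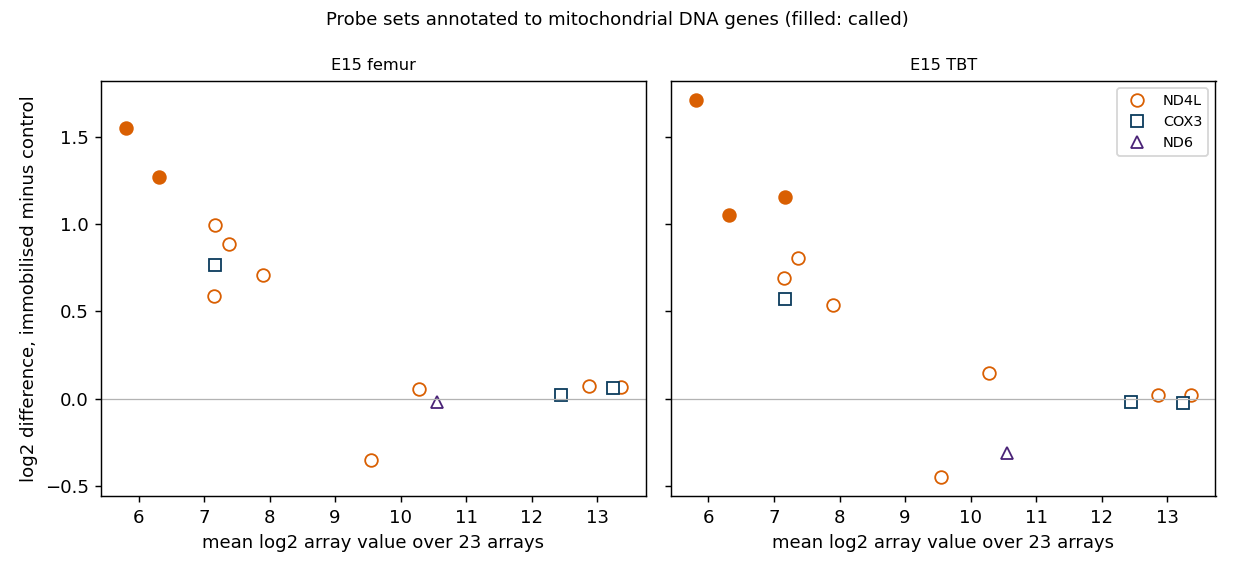
Log2 difference of immobilised minus control cartilage at E15 (y axis) against the mean log2 array value (x axis) for the 14 tested probe sets of ND4L, COX3 and ND6, in femur and TBT; filled symbols are called. The 7 probe sets with means under 8 all lie above 0.5, and the 7 brighter ones lie between -0.45 and 0.15.

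Among the members, 5 lie on the sex chromosomes in the RefSeq annotation of assembly GRCg7b: ATP5F1AW on W, and ATP5F1AZ, ATP5I, COX7C and NDUFS4 on Z. The alpha subunit of the ATP synthase has copies on both chromosomes in birds, and such near-identical copies may share probes, so their values are uncertain. ATP5F1AW was 5.86 in E13 control femur replicate 1, against 10.04 and 8.98 in the other E13 control femur arrays, and between 8.38 and 10.07 on all arrays but that one. The Z genes ATP5F1AZ, COX7C (9.86), ATP5I (10.51) and NDUFS4 (9.16) had their highest values of the 23 arrays there. Across the 23 arrays ATP5F1AW had a Pearson's r of 0.959 with HINTW, and of 0.869 without that array. For the 4 Z genes r lay between -0.692 and -0.613, and for the other 51 members between -0.412 and 0.420. Femur minus TBT was -1.04 for ATP5F1AW (SE 0.70, adjusted p = 0.986) at E13, and 0.18 without that array. E15 minus E12/13 in femur was 0.52 (SE 0.70, adjusted p = 0.669), and -0.09 without it. With the HINTW level as a covariate, 9 of the 15 members called lower in E15 control femur are called. For this fit the share over all probe sets is not given, so the count is not read as a result about the members. Without the 5 sex-linked genes the median over members in that comparison is -0.20.

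Genes around the respiratory chain were taken from lists of related mitochondrial and glycolytic genes. In E15 against E12/13 control femur, the share over all probe sets is 5.26% called higher and 6.97% lower. There, mitochondrial ribosomal proteins, which translate the mitochondrial mRNAs, had 39 of 49 below 0 (median -0.14), with 6 called lower and 0 higher. MRPL38 (-0.57, adjusted p = 0.00853) and MRPS23 (-0.45, adjusted p = 0.00779) were among them. The tricarboxylic acid cycle, which supplies NADH and succinate, had 2 of 14 called lower, OGDH (-0.46, adjusted p = 0.046) and FH (-0.26, adjusted p = 0.0373), and a median of -0.05. Assembly factors of the chain had 1 of 20 called, UQCC1 (0.56, higher, adjusted p = 0.0372), a share near that of all probe sets. Among 9 regulators of mitochondrial biogenesis, PPRC1, a coactivator, fell (-0.60, adjusted p = 0.014), and the gene annotated as YY2, the name used on the array for YY1, rose (0.35, adjusted p = 0.019). Of 7 electron carrier and quinone synthesis genes 0 were called. Of 5 genes for ATP export and coupling, the phosphate carrier SLC25A3 fell (-0.24, adjusted p = 0.0448). Glycolysis had 4 of 15 called lower, GAPDH, SLC2A1, PFKL and PKLR, with adjusted p between 0.00913 and 0.0236.

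At E15, control femur against control TBT gave 0 called genes in each of these 7 lists. All 15 glycolytic genes were below 0 (median -0.22), against 49.15% of all probe sets. The tricarboxylic acid cycle genes had a median of -0.05 and the mitochondrial ribosomal proteins one of -0.06. With immobilisation, glycolysis had 6 of 15 called lower in femur (background 2.5% lower) and 5 of 15 in TBT (background 2.86% lower). Below 0 were 13 in femur and 15 in TBT, against 49.78% and 48.66% of all probe sets. LDHA, the lactate dehydrogenase subunit, fell in both (-0.54 in femur, adjusted p = 0.00347, and -0.37 in TBT, adjusted p = 0.0188). The other mitochondrial lists had 1 call with immobilisation, MRPS18C in TBT (-0.52, adjusted p = 0.0177). The lists were not tested against each other.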

How the data were processed

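The authors hybridised RNA to Affymetrix chicken arrays, excluded 1 array after principal component analysis, and deposited log2 values made by RMA, which corrects background, normalises quantiles and summarises each probe set. Per the labels the affy package was used. Probe sets follow a custom annotation of chicken transcripts. For tool versions and genome build: not given in the sources used here. The deposited values (20804 probe sets, 2 decimals) were used as given. Symbols came from the platform annotation: 12300 probe sets carry 1 symbol, 256 several and 8248 none. Probe sets with a linear SD over 23 arrays above 10 were kept (11004). All 8 group means were fitted in limma 3.58.1 (R 4.3.3, 15 residual degrees of freedom), and the 11 contrasts were adjusted by Benjamini-Hochberg. This differs from the authors' SAM, which was not run because 2 against 3 arrays allow few permutations. Precision is limited by the number of arrays. The fit was checked on simulated data.

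Members, gene lists and tests were chosen with earlier results of these data known. Named were called members (the 8 with the largest differences), the 2 with the lowest p per complex and comparison, genes of mitochondrial DNA, isoform genes, members the study lists, and up to 4 genes per list. The sex-linked members, the dim probe sets of ND4L and COX3, and the remaining called members were named after their values were seen. Of 318 list genes 220 were found, 7 through an alias.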

Additional observations from a re-analysis of the deposited data

How the results depend on the processing

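Counts of called members were marked as moved more often than medians, but by unlike rules. A count was judged by its fold change, which small counts pass easily, and a median by the replicate spread. The share called over all probe sets can move with the setting too. It is not given beside most of these counts, here or above, so they are not read as results about the members. For E15 control femur against TBT the count was 0 without the filter on low values, after a further quantile normalisation, after centring on array medians, with only the arrays of the groups compared, with the array code as a block, and with the HINTW level as a covariate. For immobilised against control femur it was 0 without the filter, 4 after quantile normalisation, 0 after centring, 0 with only the groups compared and 1 with the code as a block. For immobilised against control TBT it was 1 with only the groups compared. For E15 against E12/13 it was 6 without the filter, 0 with only the groups compared, 9 with the code as a block and 9 with HINTW in femur, and 1 with only the groups compared in TBT. The fit without the filter adjusts over 20804 probe sets and also estimates the spread anew from all of them. The cause of these moves was not tested. HINTW as a covariate and leaving out the Z and W genes were chosen after seeing the data.

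Replicate numbers showed no pairing when all pairs of groups were averaged. Such an average cannot exclude a pairing of femur and TBT within a stage and treatment. Replicate 2 had the lowest HINTW of its group both in immobilised femur (10.95) and in immobilised TBT (10.83). Whether these arrays share embryos was not tested. Deviations from group means correlated by 0.0032 on average over 77 pairs of arrays with the same number (lowest -0.168, highest 0.210) and by -0.0016 over 154 pairs with different numbers. With a replicate block, 17 members were called in E15 against E12/13 femur, 12 of them among the 15, and 0 in E15 control femur against TBT, 2 in immobilised femur and 3 in immobilised TBT.

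Medians over members moved beyond the replicate spread within array code 09 (E12 femur against TBT -0.14, immobilised against control TBT -0.07, E15 against E12/13 TBT -0.045) and with the code as a block (E15 control femur against TBT -0.27, the difference of the stage changes -0.274). With the code as a block the complex III median turned to 0.056 for E13 against E12. With HINTW as a covariate ATP5F1AW turned to 0.267 at E13 between the elements and to -0.085 for E15 against E12/13 femur.

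Leaving out 1 array at a time, the counts ran from 0 to 2 for E15 control femur against TBT, 0 to 2 for immobilised femur, 0 to 5 for immobilised TBT, 1 to 16 for E15 against E12/13 femur and 0 to 2 for E15 against E12/13 TBT. The medians over members ran from -0.068 to 0.021 for E12 femur against TBT (above 0 without E12 control femur replicate 3), -0.208 to -0.175 for E15 control femur against TBT, 0.127 to 0.197 for the difference of the immobilisation effects and -0.249 to -0.169 for the difference of the stage changes. The median of complex II, with 3 genes, changed sign in most comparisons. It ran from -0.06 to 0.09 for E15 control femur against TBT and -0.12 to 0.055 for immobilised femur. For immobilised femur against immobilised TBT it ran from -0.093 to 0.015, and for E15 against E12/13 femur from -0.04 to 0.11. It ran from -0.113 to 0.082 for the difference of the immobilisation effects and -0.092 to 0.068 for the difference of the stage changes. Its sign held for immobilised against control TBT (-0.078 to -0.012) and for E13 femur against TBT (0.023 to 0.058). The complex V median ran from -0.133 to 0.007 for E12 femur against TBT and -0.03 to 0.035 for immobilised femur. ATP5F1AW ran from -1.913 to 0.177 for E13 femur against TBT and -0.088 to 0.957 for E15 against E12/13 femur. With 2 or 3 arrays a group and 2-decimal values, small differences are beyond the reach of these data, and array values bound no absolute transcript level.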
